A study of Drosophila melanogaster with 4 samples.

Results

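The strong isolated peaks are the places on the chromosome arms of Drosophila melanogaster where a deposited ChIP-seq list of Deformed (Dfd) binding has a high score and no close neighbour. They were selected on 2 measured values of the list, the score of each peak and the distance between peak midpoints. A peak belonged to the set when it lay on 2L, 2R, 3L, 3R, X or 4, scored 52.26 or more, and had no other midpoint within 5000 bp of its own. Peaks in chains of 5 or more with gaps of at most 2000 bp, called runs here, and those of the histone gene array on 2L, were left out. The set held 268 peaks of the 7683 in the list, and of the 2625 on the arms. Score and isolation are therefore descriptions below, and nothing is supported with them.

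All 4 libraries came from embryos labelled 0 to 8 h of the strain Dfd-GFP-Pacman, genotype PBac{y[+]-attP-3B}VK00037. The flies carried a genomic Dfd coding region with green fluorescent protein (GFP) in place of its stop codon. There were 2 ChIP libraries, precipitated with the rabbit polyclonal GFP antibody ab290, and 2 input libraries of the same strain. The groups thus share strain, transgene and stage and differ in the precipitation, and no library of untagged flies is among the 4. The embryo collection described in the protocol text has another window, 8 to 16 h, and another stock, y; bw cn sp, and the stage is given here as labelled. Embryos were taken whole, so a peak does not say in which cells the protein was bound. The authors' list names the bounds and the score of each peak but ties neither to a library, so the 2 replicates could not be compared and read depth is unknown. Intervals below are exact and cover counting error within the list, or give the range of a median by order statistics; peaks are not replicates, and no difference between sets of peaks was tested.

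Dfd is a Hox protein, a transcription factor with a homeodomain that reads short AT-rich DNA sites, often together with its cofactor Extradenticle. It gives the mandibular and maxillary segments of the fly head their identity, acts on enhancers of genes expressed in these segments, and keeps its own gene active through an enhancer of that gene. Hox-regulated enhancers can stand alone or lie in groups around a target gene. Genes and sequence under the peaks were not analysed here, because positions are on release 5 of the genome and the gene table given for this organism is of release 6.

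Most strong arm peaks stood alone. The score of 52.26 marks the highest 10.0% of the 7683 peaks, so that share is fixed by the threshold. Of the 2625 arm peaks, 15.0% reached it. The arm peaks include 967 in runs, which the rule leaves out and of which 1.86% did. Of the 825 arm peaks outside runs and the array that were not isolated, 13.0% did. Of the 829 isolated arm peaks, 32.3% did (95% interval 29.2 to 35.6%), and these are the members. Seen the other way, the members made up 67.8% of the 395 strong arm peaks (interval 63.0 to 72.4%). The other 127 strong arm peaks comprised 107 with a midpoint within 5000 bp, 18 in runs, and 2 of the histone array outside runs; 12 of the 18 in runs were in that array too. Outside runs and the array, isolation was least frequent among the weakest arm peaks, at 33.7% below a score of 15 (254 of 753, interval 30.4 to 37.2%). It was 81.8% between the threshold and 75 (81 of 99, interval 72.8 to 88.9%) and 67.1% between 100 and 200 (94 of 140, interval 58.7 to 74.8%). At 300 or more it was 63.6% (14 of 22, interval 40.7 to 82.8%), so that among strong peaks the intervals overlap.

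The scores, −log10 p of enrichment over background, ran from 52.26 to 530.34 with a median of 107.0 (interval 93.5 to 117.7) and quartiles of 71.7 and 171.7. There were 140 members at 100 or more, 46 at 200 or more and 14 at 300 or more. The 107 strong arm peaks with a close neighbour had a higher median, 133.1 (interval 113.1 to 151.3), though the intervals overlap. The highest peak of the whole list, 678.18, was among these 107. Of the 20 highest peaks of the list, 12 were members. The score threshold cut through a continuous range. The lowest members were 4 tied at 52.26, of which 3 by position lay at 3L:14350019-14350530, 3R:3374853-3375465 and 3R:21867741-21868704. The 3 isolated peaks just below it scored 51.92 at 2R:21145652-21146688, 51.76 at 3R:11299240-11299752, and 51.26 at 2L:8488745-8489209.

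**Figure D1:**
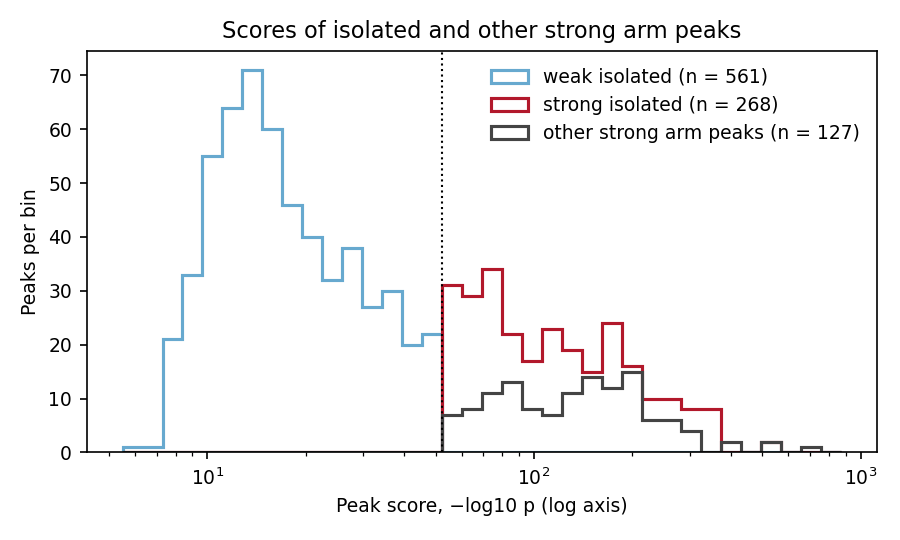
Number of arm peaks per bin of score (−log10 p, log axis) for the 268 strong isolated peaks, the 561 weak isolated peaks and the 127 other strong arm peaks; the dotted line is the threshold of 52.26. The strong isolated peaks begin at the threshold, where the weak isolated ones end, and overlap the other strong arm peaks over most of their range.

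The score can be read as a height for most members. MACS, the peak caller that the list names as its source, scores a peak by the Poisson probability of its pileup, the number of overlapping fragments at its most enriched point, given a background rate. A rate of 80.06 was found from the 7415 peaks that are not members, and at this rate the scores of 232 of the 268 members equalled a whole-number pileup to 2 decimals (86.6%, interval 81.9 to 90.4%). At the 7581 rates tried more than 0.5 away from it, a median of 5 members matched and at most 26. Those rates were tried in steps of 0.05 and the found rate was refined in steps of 0.0002. Rates between the coarse steps were therefore not compared. The unit and the rate are inferred from the values and not stated by the authors. The matched members had a median pileup of 349.5, or 4.37-fold over the rate (interval 4.08 to 4.55), with quartiles of 3.62-fold and 5.48-fold. The threshold score is a pileup of 252, or 3.15-fold, and 77 members reached 5-fold or more. The matched weak isolated peaks lay lower by construction, with a median of 2.07-fold (interval 2.04 to 2.12).

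The share of members at the shared rate can be set beside that of other peaks only as a description, because the score chose the members. Their matched share was not the same at all scores. It was 82.7% below 75 (67 of 81), 89.4% from 75 to 100 and from 100 to 200, and 90.6% from 200 to 300. At 300 or more it was 71.4% (10 of 14), and the intervals of these shares overlap. For the 107 strong arm peaks with a close neighbour the matched share was 82.2% (interval 73.7 to 89.0%), within the members' interval. The weak isolated peaks had 76.5% (429 of 561, interval 72.7 to 79.9%), and coincidental matches were more frequent among them: at other rates a median of 4.28% of them matched, against 1.87% of members. All arm peaks, which include the members and the 967 run peaks that the rule leaves out, had 53.5%. The 332 strong peaks of Uextra, the additional unplaced sequence, had 18.7% (interval 14.6 to 23.3%). The members' share was the highest of these, but close to that of strong arm peaks with a close neighbour. No difference between these sets was tested. An unmatched score says only that no whole pileup at this rate gives it. Of the 36 unmatched members, 16 were within 0.01 of a matching value, and counting them gives 92.5%. The shares of the other sets count exact matches only, so the 92.5% cannot be set beside them. By arm, the matched share ran from 82.4% on 2R and 3R to 94.0% on X, where 47 of 50 members matched.

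**Figure D2:**
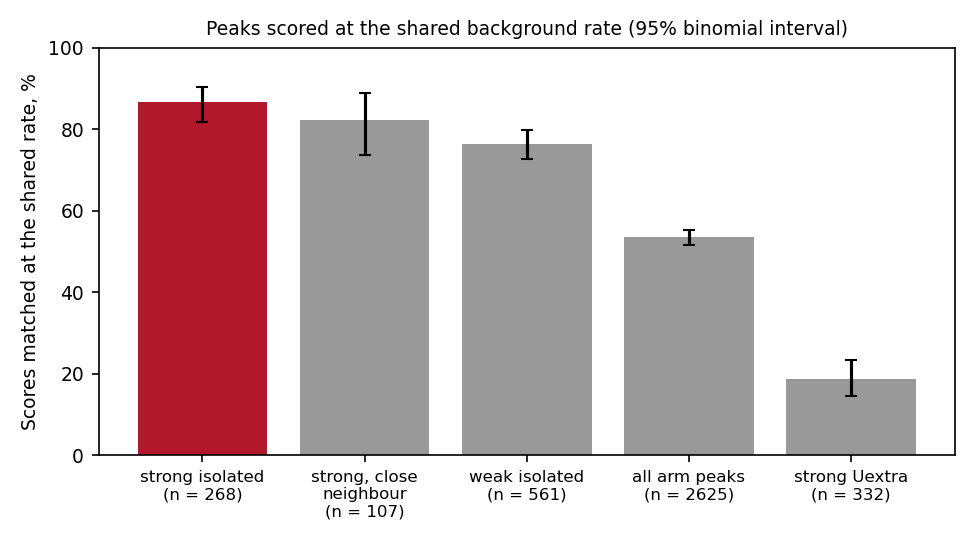
Share of peaks whose score equals a Poisson tail at the shared background rate of 80.06, in percent, for 5 sets of peaks; bars are shares and whiskers exact 95% binomial intervals. The strong isolated peaks stand at 86.6%, the strong arm peaks with a close neighbour at 82.2% and the strong Uextra peaks at 18.7%.

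The highest member was a 907-bp peak at 3L:6117918-6118824, with a score of 530.34 and a pileup 10.5-fold over the rate. Its nearest neighbour was 48.8 kb away and scored 44.02. The second, at 3R:8537872-8538849, scored 501.12, was 978 bp wide and matched no pileup at the rate. Its neighbour, 74.6 kb away, was itself strong at 91.32. These 2 stood apart from the rest, which began at 369.29. The third member, at 2L:16049527-16050037, was only 511 bp wide at 8.44-fold, and the next strong arm peak on either side was 988.6 kb or more away.

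Of the members ranked from 4 to 12 by score, 8 matched a pileup at the rate. The peak at 2L:8477751-8478530 scored 355.46 (8.26-fold), the one at 2L:19791018-19792234 scored 337.25 (8.01-fold) and the one at 2L:12520181-12520770 scored 310.44 (7.63-fold). On the other arm of that chromosome, 2R:20744393-20745643 scored 350.88 (8.19-fold) and 2R:1180733-1181711 scored 343.59 (8.09-fold). The peak at 3L:14667015-14667553 scored 347.23 (8.14-fold). Across the centromere, 3R:11798486-11799054 scored 345.41 (8.12-fold) and 3R:18222844-18223476 scored 338.15 (8.02-fold). The remaining 9 of the top 20 scored from 279.98 to 321.08. They comprised 4 peaks of 3L (3L:18081056-18081701, 3L:9816853-9818099, 3L:16853669-16854514 and 3L:19055849-19056405), 2 of 3R (3R:15686922-15687543 and 3R:6503110-6503758), and 1 each of 2L (2L:10964210-10964918), 2R (2R:19253804-19254531) and chromosome 4 (4:1202160-1203353, scored 306.92). Of the top 20, 19 had a nearest peak below the threshold, and 9 lay over 50 kb from any peak. X had none among the 20; its highest member, X:13315063-13315566, scored 276.55 at 7.14-fold.

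Strong isolated peaks were mostly under 1 kb wide. Their median width was 636.5 bp (interval 597 to 679), with quartiles of 514.8 and 870.5 bp. Of the 268, 204 were between 400 and 1000 bp wide. All arm peaks had a lower median width, 399 bp (interval 390 to 410). Members of 1 kb or more numbered 45, and only 1 reached 2 kb. This was a 2985-bp peak at X:1988276-1991260, with a score of 149.88. The next widest were 1873 bp at 2R:19501467-19503339, with a score of 217.08, and 1844 bp at 2L:22429323-22431166, with a score of 107.92. The narrowest were 326 bp at 3R:2605780-2606105, 342 bp at 2R:7597678-7598019 and 347 bp at 2R:11902191-11902537, with scores of 53.26, 70.75 and 73.55. The members together covered 196.8 kb, 13.4% of the bases in arm peaks.

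Width followed score up to a point. Its median was 512 bp for the 81 members below a score of 75 (interval 476 to 555), 562 bp for the 47 from 75 to 100 (interval 538 to 642) and 786 bp for the 94 from 100 to 200 (interval 700 to 847). It was 777.5 bp for the 32 from 200 to 300 (interval 649 to 951) and 713 bp for the 14 above that (interval 569 to 1194), so that no further increase could be seen at these numbers. Across the 268 members, Spearman's rho of score and width was 0.45; both values come from the same peak caller and the same fragments. Strong arm peaks with a close neighbour had a higher median, 742 bp (interval 643 to 821) against 636.5 bp for members, though the intervals overlap. From scores of 100 to 200 their median was 805 bp (interval 699 to 895) against 786 bp. Weak isolated peaks were narrower, at 326 bp (interval 312 to 338).

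**Figure D3:**
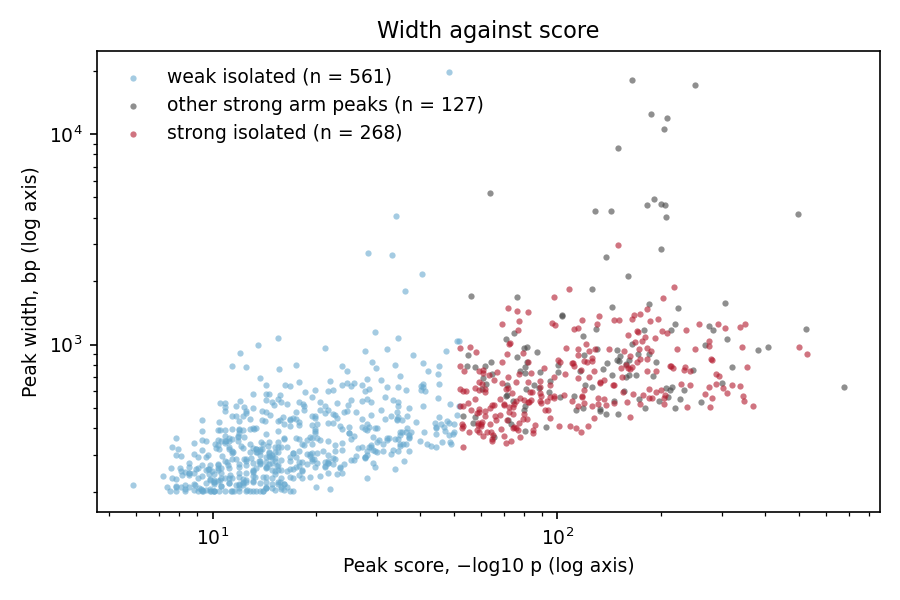
Peak width in bp against peak score (−log10 p), both on log axes, with 1 point per arm peak. The strong isolated peaks lie between 326 and 2985 bp; other strong arm peaks reach 17987 bp, or 5234 bp once runs and the histone array are left out, and weak isolated peaks reach 19741 bp.

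Isolation extended well past the 5000 bp of the rule. The nearest midpoint was a median of 25.7 kb away (interval 20.1 to 32.4 kb), with quartiles of 11.4 and 54.9 kb. It was over 10 kb away for 211 members (78.7%), over 50 kb for 80 (29.9%) and over 100 kb for 34 (12.7%). The most remote member, at 3L:22075936-22076685, had its nearest peak 329.8 kb away and scored 53.76. It was followed by peaks at 3R:26631463-26632065 (254.8 kb, score 54.27), at 2L:15060637-15061796 (253.4 kb, score 200.56), at 3R:7946881-7947273 (238.7 kb, score 76.95) and at 3L:12686171-12686836 (225.2 kb, score 59.42). Remote members were thus found among low and high scores. Weak isolated peaks lay somewhat farther from their nearest peak, with a median of 33.3 kb (interval 27.5 to 36.2 kb), though the intervals overlap.

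At the other end, 3 members only just met the rule. Their nearest midpoints were 5158 bp away for a peak at X:5998714-5999100 (score 55.29), 5230 bp for one at 3R:7218417-7219008 (score 89.28) and 5270 bp for one at X:15885984-15886496 (score 53.26). Among strong peaks just outside it were a pair at 2L:4997160-4998734 and 2L:5000827-5004976, with scores of 305.16 and 498.66 and midpoints 4954.5 bp apart. The third was at 2L:19582199-19582652, with a score of 57.86 and a neighbour at 4929.5 bp. Measured from edge to edge, 6 members had another peak within 5000 bp.

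The nearest peak of a strong isolated peak was strong for 82 of the 268 members (30.6%, interval 25.1 to 36.5%). The same held for 25.3% of weak isolated peaks (interval 21.8 to 29.1%) and 13.1% of all arm peaks (interval 11.8 to 14.4%). All arm peaks include 967 run peaks, of which 1.86% were strong. Strong arm peaks with a close neighbour had a higher share than members, 41.1% (44 of 107, interval 31.7 to 51.05%). The nearest peak scored a median of 20.7 for members (interval 16.2 to 27.2) and 18.1 for weak isolated peaks (interval 16.5 to 20.5), so these intervals overlap. For members it was a weak isolated peak in 109 cases (40.7%), another member in 71 (26.5%), a weak peak of a small group in 52 (19.4%), a run peak in 25 (9.33%) and a strong peak with a close neighbour in 11 (4.10%). The nearest peak outscored the member in 39 cases.

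Other strong arm peaks were a median of 94.6 kb away (interval 74.6 to 132.2 kb), and 131 members (48.9%, interval 42.7 to 55.0%) had none within 100 kb. Weak isolated peaks and arm peaks as a whole lay at like distances from the next strong arm peak, with medians of 112.3 kb (interval 96.3 to 130.7 kb) and 110.2 kb (interval 102.9 to 116.3 kb), and 53.7% and 52.9% of them had none within 100 kb. The distance of members to strong peaks was thus near that of arm peaks in general. For 18 members none lay within 500 kb. Among the members, 77 (28.7%, interval 23.4 to 34.5%) had another member within 50 kb, and 16, in 8 pairs chosen here for their closeness after values were seen, had one within 10 kb. The closest pair, at 2L:18702976-18703607 and 2L:18708457-18708973, was 5.42 kb apart and scored 275.7 and 137.94. A pair at 3R:4007042-4007836 and 3R:4016575-4017328 was 9.51 kb apart and scored 213.11 and 233.18. In other pairs a peak near the threshold lay beside a higher one, as at 2L:7306779-7307196 and 2L:7314993-7316036, with scores of 52.76 and 175.4.

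**Figure D4:**
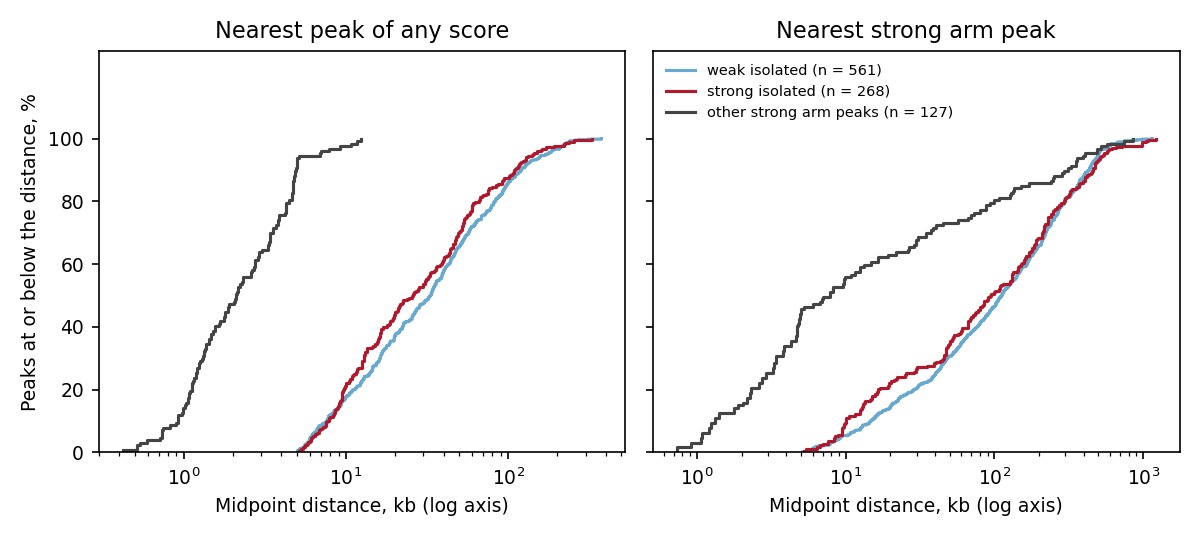
Cumulative share of peaks, in percent, against the midpoint distance in kb (log axis) to the nearest peak of any score, on the left, and to the nearest strong arm peak, on the right. The curves of strong and weak isolated peaks start at the 5 kb of the rule. Their medians to the nearest peak are 25.7 kb for the strong and 33.3 kb for the weak.

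The 5 large arms carried members at like densities. Over the span from the first to the last peak of an arm, 3R had 68 members or 2.44 per Mb (95% Poisson interval 1.90 to 3.10), 2R had 51 or 2.41 (interval 1.80 to 3.17) and X had 50 or 2.24 (interval 1.66 to 2.95). There were 45 on 2L or 1.96 per Mb (interval 1.43 to 2.62) and 42 on 3L or 1.71 (interval 1.23 to 2.31), so all 5 intervals overlap. The share of isolated peaks that were strong was as even, from 29.0% on 3L (interval 21.7 to 37.1%) to 33.3% on X (interval 25.9 to 41.5%). Median scores ran from 82.2 on X (interval 74.1 to 117.7) and 92.9 on 3R (interval 82.2 to 117.7) to 122.6 on 3L (interval 85.1 to 162.1), and these intervals overlap too.

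Chromosome 4, the small and largely heterochromatic autosome, held 12 members, all between bases 379385 and 1317016. That is 9.52 per Mb of span (interval 4.92 to 16.6), 4.42 times the 2.15 of the large arms, and 46.2% of its 26 isolated peaks (interval 26.6 to 66.6%). Other peaks were dense there too, with 67.4 arm peaks per Mb against 21.4 on the large arms (3.16 times) and 11.1 weak isolated peaks per Mb against 4.60 (2.41 times). Of the 32 strong peaks of chromosome 4, 37.5% were members (interval 21.1 to 56.3%), against 70.5% on the large arms (interval 65.5 to 75.2%), so that most strong peaks there had a close neighbour. The ratio rested on the isolation distance: it was 1.82 at 10 kb and 0.629, below that of the large arms, at 20 kb, where 1 of the 12 was left. Their scores ran from 57.86 to 306.92, with a median of 143.9 (interval 72.1 to 221.9), and their median width was 916.5 bp (interval 621 to 1194).

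**Figure D5:**
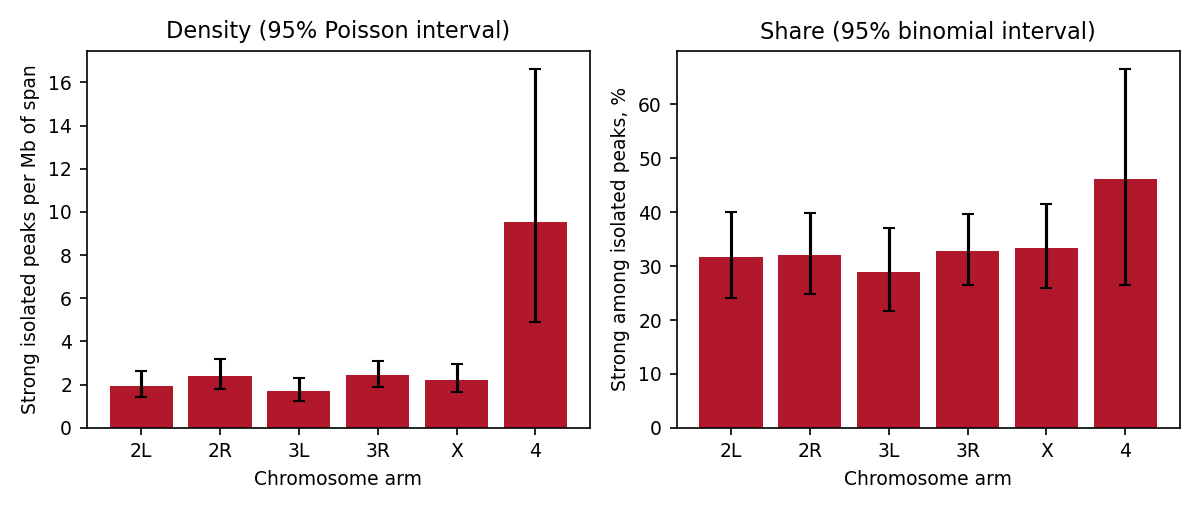
Strong isolated peaks per Mb of the span of arm peaks, on the left, and their share among isolated peaks in percent, on the right, by chromosome arm, with exact 95% Poisson and binomial intervals. The large arms lie between 1.71 and 2.44 per Mb, and chromosome 4 at 9.52 per Mb.

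Along the large arms, members were spread from end to end. Of 117 full 1-Mb bins, 17 held none, 78 held 1 to 3, and 22 held 4 or more, with at most 9 in a bin. With each span cut into 10 equal parts, the part next to the centromere held 41 of the 256 members (16.0%), and the others held 19 to 30 each. All arm peaks had 16.4% in that part and weak isolated peaks 17.4%. The centromere-proximal 1 Mb held 18 members (7.03%, interval 4.22 to 10.9%) against 9.02% of all arm peaks, and 16 of the 18 matched the shared background rate (88.9%, interval 65.3 to 98.6%), as did 86.6% elsewhere on these arms. The longest stretches between neighbouring members were 3003 kb on 3R, from base 22976877 to 25979793, and 2654 kb on 2L, from base 16049782 to 18703291. They were not empty of peaks, with 51 other peaks in the first, 24 of them in runs, and 36 in the second, 9 of them in runs.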

How the data were processed

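The 2 Dfd-GFP ChIP and 2 input libraries gave 1 deposited peak list. BDGP5 is the build, and BWA, MACS2 and CASAVA (versions 1.7.0.2 and 1.7.0.3) the tools, that the submitters' processing notes name. Their roles and settings, and whether replicates were pooled, are not stated there. Per the file headers, positions are on FlyBase release 5. The deposited score has no stated unit and was read as −log10 p: it was compared, to 2 decimals, with the Poisson upper tail at background rates from 20 to 400 (steps of 0.05, then 0.0002), over peaks outside the set. The search was tested on simulated data. Midpoints are the mean of start and end. Shares have exact (Clopper-Pearson) binomial intervals, densities exact Poisson intervals and medians order-statistic intervals, all at 95%. No test between sets was made, since libraries cannot be separated. Peaks named are the 20 highest, the highest of each arm, the 3 on either side of each limit, the 3 widest and narrowest and the 5 most remote; pairs of members within 10 kb were picked after their values were seen. Members and measures were chosen with earlier results of these data known. Python 3.11.15, numpy 2.4.6, scipy 1.17.1 and pandas 2.3.3 were used. Motif and gene annotation were not run for want of a release 5 genome.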

Additional observations from a re-analysis of the deposited data

How the results depend on the processing

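Of 98 recomputed values, 80 stayed within the interval of the value reported or, for the number of members, within 1.5 times of it. Another 17 moved and 1 turned. The 80 include all 47 values from leaving out 1 arm, which keeps most of the same peaks. Under the other settings, 33 values stayed, 17 moved and 1 turned. A score of 100 or more left 140 members, 16.9% of isolated arm peaks, with a median width of 780 bp and 178.1 kb to the next strong peak. A score of 30 or more gave 43.9%, 592 bp and 52.4 kb. These moves follow from the settings themselves, as do those of the distance: with isolation over 2000 bp, the nearest peak was 17.9 kb and the nearest strong peak 73.9 kb away; over 10000 bp, the nearest peak was 39.2 kb away. Isolation over 20000 bp left 151 members, with a width of 592 bp, distances of 52.2 and 172 kb and 4.0% in the proximal 1 Mb. The density of chromosome 4 relative to the large arms was 1.82 at 10000 bp and turned to 0.629 at 20000 bp. Allowing 0.01 between score and tail raised the matched share to 92.5%; this setting and the others for that share were chosen after seeing the data. With each arm left out in turn, the set held 200 to 256 members, 31.9 to 33.0% of isolated peaks, with a width of 624 to 654.5 bp, distances of 21.1 to 29.7 kb and 83.2 to 108.6 kb, 5.69 to 8.25% in the proximal 1 Mb, a chromosome 4 ratio of 4.20 to 4.61 and a matched share of 84.9 to 88.0%. Edge-to-edge distance and merging peaks within 1000 bp moved none of the 7 values. No paired analysis was possible because no peak value belongs to a single library, and for the same reason no replicate could be left out. Settings for motifs and gene annotation were not run. Read depth is unknown, and its effect was not tested.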
